A study of Mus musculus with 7 samples.

Results

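The genes described here are 10 immediate early genes of the AP-1 and EGR families, of 20719 named genes measured on the arrays. They are the Fos family (Fos, Fosb, Fosl1 and Fosl2), the Jun genes Jun and Junb, their partner Atf3, and the EGR genes Egr1, Egr2 and Egr3. They were taken by gene symbol, with no measured value used in the choice, and all 10 had a transcript cluster, the group of probes that stands for a gene on this array. The question asked of them was whether Wnt+ and SF1+ cells carried unequal marks of stress from the digestion and sorting of the tissue.

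Wnt+ cells (3 arrays) were GFP-positive adrenal cells of TCF/Lef:H2B-GFP mice, whose reporter is a histone-tagged GFP driven by repeated TCF/LEF binding sites and a minimal promoter of the heat shock gene Hspa1b. SF1+ cells (4 arrays) were GFP-positive adrenal cells of Sf1:eGFP mice, whose reporter is eGFP driven by an artificial chromosome fragment of Nr5a1, the gene of the steroidogenic transcription factor SF1. All mice were C57BL/6J males aged 6 weeks. Each array came from a separate sort of 10 pooled adrenals that had been minced, digested with collagenase at body temperature, dispersed and sorted for viable cells, so an array is a pool of animals and not 1 animal. The protocols state 4 sorts for each genotype; the Wnt+ values analysed here come from 3. Each group is 1 reporter line, so line and cell population cannot be told apart, and neither group holds RNA of adrenals that were not digested.

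Immediate early genes are transcribed within minutes of a stimulus by factors that are already in the cell, among them SRF with its ETS partners and CREB. Fos and Jun proteins join through leucine zippers to form the dimers called AP-1, while EGR proteins are zinc finger factors that bind GC-rich DNA. In the adrenal cortex, corticotropin and angiotensin are known to induce several of them, and digestion of a tissue into single cells is known to induce them in many cell types.

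None of the 10 genes differed between Wnt+ and SF1+ cells past an adjusted p of 0.05 in limma, a threshold that 0.256% of all genes passed in either direction. All 10 differences were negative, that is, each gene's mean was lower in Wnt+ cells, against 45.2% of all genes. These signs are not independent, since Egr1, Jun, Atf3 and Junb ran with Fos over the arrays (Pearson's r 0.74 to 0.94). The differences of Fosb, Fosl1 and Egr3 were smaller than their SE. The median difference of the 10 genes was -0.30 on the log2 scale, against 0.02 for all genes, and 0 of the 10 reached 2-fold. Atf3 alone passed an unadjusted p of 0.05, which 15.5% of all genes did, and 0 of the 10 passed it when Wnt+ 2, any 1 of the SF1+ arrays or the dim genes were left out. Without Wnt+ 1 the 1 gene that passed was Junb, and with replicate number as a block it was Egr2, not Atf3. In 0 of the 10 did the arrays of the groups separate without overlap, as 14.1% of all genes did. Levels below are deposited log2 expression values, and they compare arrays for 1 gene, not genes with each other. Percentiles place a gene's value among the values of an array and are no measure of RNA amount between genes.

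Most of the genes lay high among the array values in both groups. Array medians over all genes lay between 3.13 and 3.23 log2 units. Fos, Fosb, Jun, Egr1 and Atf3 stood in the top 5% of gene values in all 7 arrays, between percentiles 96.8 and 99.7. Egr3 lay between percentiles 67.6 and 73.1. Fosl1 ran between percentiles 46.7 and 84.7, the widest span of the 10.

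Fos (cluster 10397346, chromosome 12) encodes the inducible partner that has to pair with a Jun protein to bind DNA. It had 8.42, 8.00 and 8.91 log2 units in Wnt+ arrays 1, 2 and 3, against 8.85, 8.59, 8.50 and 9.25 in SF1+ arrays 1, 2, 3 and 4. Wnt+ 2 was the lowest and SF1+ 4 the highest, and Wnt+ 3 lay above 3 of the 4 SF1+ arrays, so the groups overlapped. The means were 8.44 ± 0.46 in Wnt+ (SD, n = 3) and 8.80 ± 0.34 in SF1+ (SD, n = 4). The difference of -0.35 (SE 0.26, 95% interval -0.97 to 0.26) had an adjusted p of 0.589 in limma.

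Fosb (cluster 10560481, chromosome 7), a close relative of Fos that also needs a Jun partner, had 9.54, 9.15 and 9.36 log2 units in Wnt+ arrays, against 9.76, 9.29, 9.41 and 9.31 in SF1+ arrays. The groups lay within each other's range apart from the lowest value, in Wnt+ 2, and the highest, in SF1+ 1. Its difference was -0.09 (SE 0.15, 95% interval -0.45 to 0.26, adjusted p = 0.83 in limma).

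Fosl1 and Fosl2 encode Fos-related proteins that lack the transactivation domain of Fos and appear later after a stimulus. Fosl1 (cluster 10460585, chromosome 19) had 4.85, 6.00 and 3.19 log2 units in Wnt+ arrays, against 5.05, 5.17, 5.72 and 3.03 in SF1+ arrays. Wnt+ 3 and SF1+ 4 stood over 1 log2 unit below the other arrays of their own groups. The difference between the groups was -0.06 (SE 0.83, 95% interval -2.02 to 1.90), the widest interval of the 10 genes.

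Fosl2 (cluster 10520862, chromosome 5) had 6.69, 6.59 and 5.48 log2 units in Wnt+ arrays, against 6.69, 6.95, 7.06 and 6.24 in SF1+ arrays. Again Wnt+ 3 and SF1+ 4 were the lowest of their groups. Its difference was -0.48 (SE 0.34, 95% interval -1.27 to 0.31, adjusted p = 0.565 in limma).

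Jun (cluster 10514466, chromosome 4) encodes the AP-1 subunit that can also bind DNA as a pair with itself. It had 9.48, 8.94 and 9.56 log2 units in Wnt+ arrays, against 9.60, 9.46, 9.46 and 9.80 in SF1+ arrays. The 2 other Wnt+ arrays lay among the SF1+ arrays, and only Wnt+ 2 lay below them all. The difference was -0.25 (SE 0.17, 95% interval -0.66 to 0.15, adjusted p = 0.556 in limma).

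Junb (cluster 10580282, chromosome 8), a Jun relative that restrains Jun at many promoters, had the most negative difference of the 10. It had 7.03, 5.80 and 6.87 log2 units in Wnt+ arrays, against 6.99, 7.27, 7.16 and 7.44 in SF1+ arrays. Wnt+ 2 was more than 1 log2 unit below every other array, and Wnt+ 1 was above SF1+ 1. The means were 6.56 ± 0.67 in Wnt+ (SD, n = 3) and 7.21 ± 0.19 in SF1+ (SD, n = 4). The difference was -0.65 (SE 0.30, 95% interval -1.35 to 0.05), a Wnt+ level 0.637 times that of SF1+, with an adjusted p of 0.36 in limma.

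Atf3 (cluster 10361091, chromosome 1) encodes a stress-induced zipper protein that pairs with Jun proteins and often represses. It had 9.49, 8.91 and 9.73 log2 units in Wnt+ arrays, against 9.79, 9.90, 9.71 and 9.98 in SF1+ arrays. Wnt+ 3 lay just above SF1+ 3, which is the whole of the overlap. The means were 9.38 ± 0.42 in Wnt+ (SD, n = 3) and 9.84 ± 0.12 in SF1+ (SD, n = 4). The difference was -0.47 (SE 0.19, 95% interval -0.92 to -0.01), or 0.723-fold (95% interval 0.528 to 0.992), with an unadjusted p of 0.0455 and an adjusted p of 0.31 in limma.

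Egr1 (cluster 10454782, chromosome 18), the zinc finger factor that ACTH and growth factors induce, had 9.62, 9.15 and 9.70 log2 units in Wnt+ arrays, against 9.80, 9.54, 9.64 and 10.06 in SF1+ arrays. As in Jun, Wnt+ 2 was the lowest and SF1+ 4 the highest, with the other arrays mixed. The difference was -0.27 (SE 0.18, 95% interval -0.69 to 0.15, adjusted p = 0.543 in limma).

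Egr2 (cluster 10363735, chromosome 10), best known for its part in Schwann cell myelination, had 7.02, 6.78 and 6.23 log2 units in Wnt+ arrays, against 7.27, 7.19, 6.85 and 6.75 in SF1+ arrays. Wnt+ 3 was the lowest array and SF1+ 4 the lowest of its group, with overlap between the groups. Its difference was -0.34 (SE 0.22, 95% interval -0.85 to 0.18, adjusted p = 0.531 in limma).

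Egr3 (cluster 10416251, chromosome 14), a relative that Egr1 can induce, had 4.56, 4.37 and 4.73 log2 units in Wnt+ arrays, against 4.65, 4.49, 4.79 and 4.40 in SF1+ arrays. All 7 arrays lay within 0.42 log2 units of each other. Its difference was -0.03 (SE 0.13, 95% interval -0.34 to 0.28, adjusted p = 0.952 in limma).

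**Figure D1:**
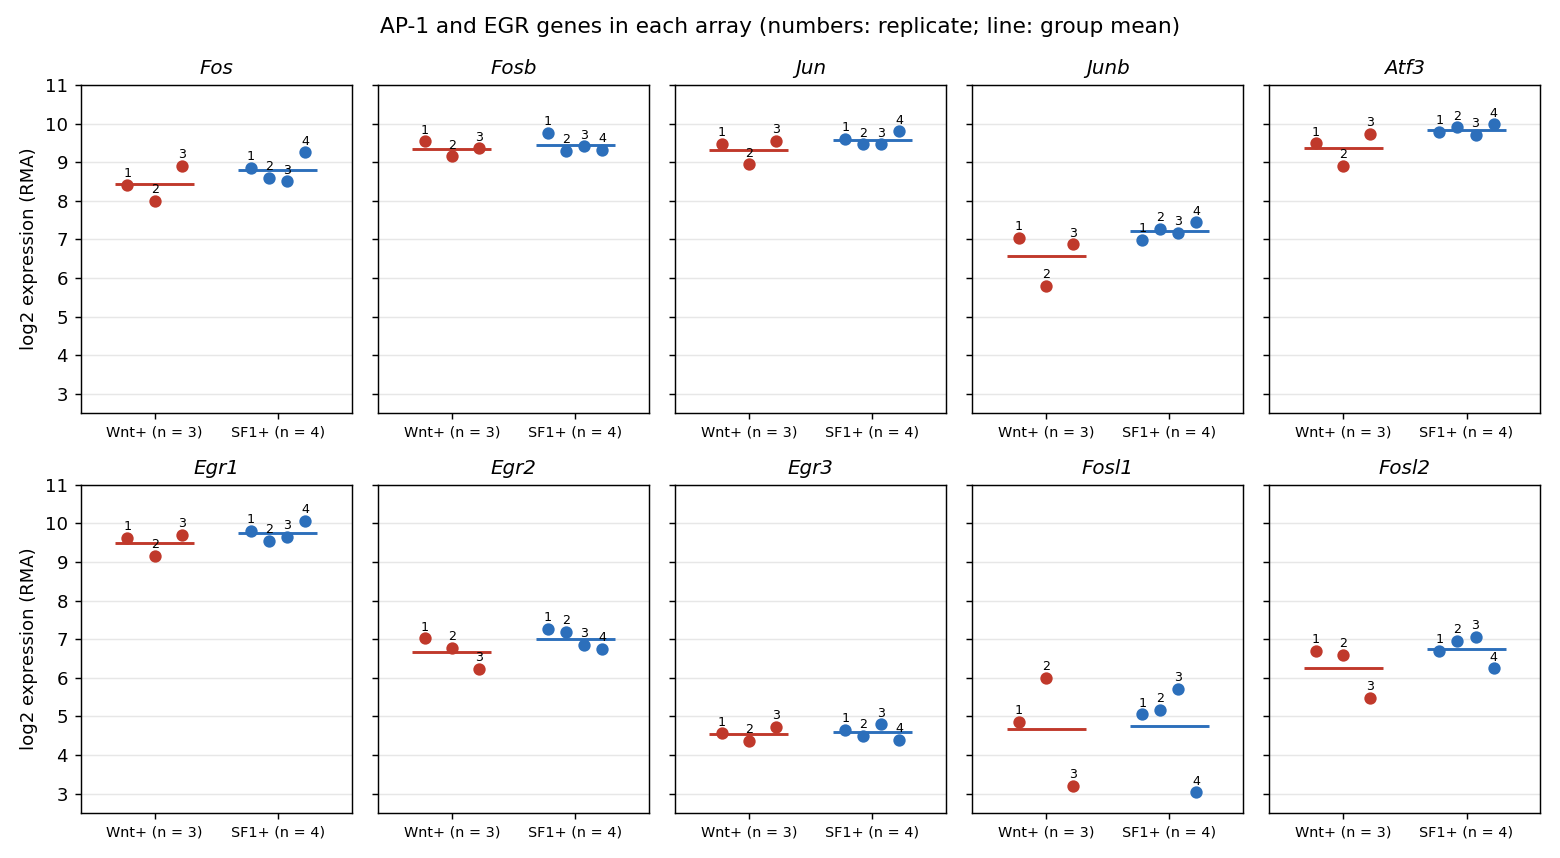
Log2 expression (vertical axis) of each of the 10 genes in 3 Wnt+ arrays (left, red) and 4 SF1+ arrays (right, blue). Points are arrays with their replicate number, and horizontal lines are group means. Wnt+ 2 is the lowest point in Fos, Fosb, Jun, Junb, Atf3, Egr1 and Egr3, while Wnt+ 3 and SF1+ 4 are the low points of their groups in Fosl1, Fosl2 and Egr2.

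**Figure D2:**
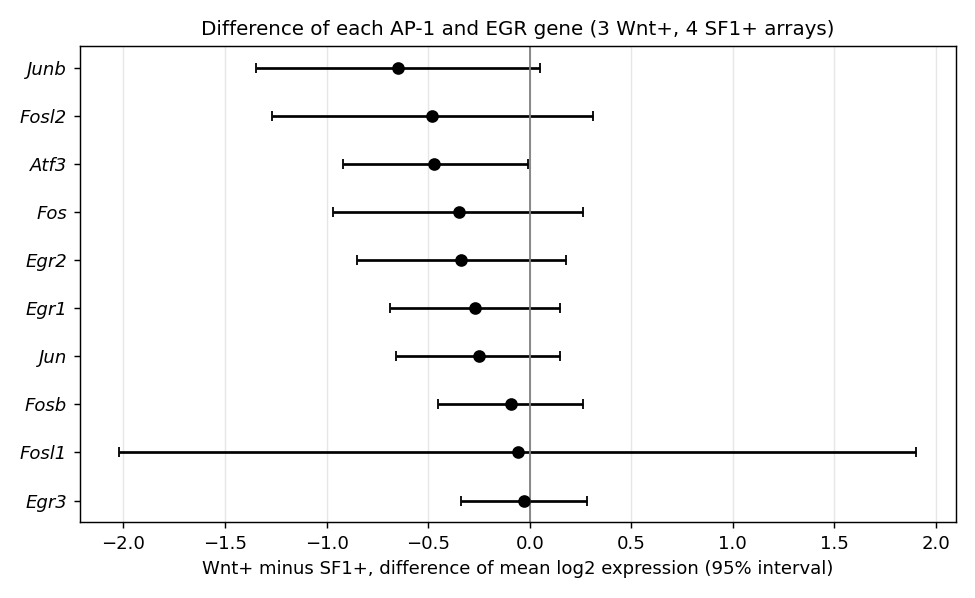
Difference of the mean log2 expression, Wnt+ minus SF1+ (horizontal axis), for each gene, with its 95% interval from limma. All 10 points lie below 0, between -0.65 for Junb and -0.03 for Egr3, and only the interval of Atf3 (-0.92 to -0.01) ends short of 0.

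The negative differences of some genes depended on 1 array more than those of others. Wnt+ 2 was the lowest of the 7 arrays for 7 of the 10 genes, as it was for 17.2% of all genes. Wnt+ 3 was the lowest for Fosl2 and Egr2 and SF1+ 4 for Fosl1. Without Wnt+ 2, the difference was -0.13 for Fos, -0.06 for Jun, -0.10 for Egr1, -0.27 for Junb and -0.23 for Atf3. It was more negative for Fosl1 (-0.72), Fosl2 (-0.65) and Egr2 (-0.39), while Fosb (0.01) and Egr3 (0.06) turned positive. Negative differences thus stood in 8 of the 10 genes without Wnt+ 2, and the mean difference of the 10 was -0.25, against -0.30 with all arrays. That mean moved little partly through Fosl1, which was highest in Wnt+ 2 and went from -0.06 to -0.72. Fos, Jun, Egr1, Junb and Atf3 each became less negative. SF1+ 4 was the highest array for 5 genes (Fos, Jun, Junb, Atf3 and Egr1), as it was for 12.4% of all genes.

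The promoter windows of 5 genes are shown because these genes took up opposite patterns over the arrays. Wnt+ 3 and SF1+ 4 were the highest arrays of their own groups for Fos, Jun and Atf3. They were the lowest of their own groups for Egr2 and Fosl2. The RefSeq table (GRCm38.p6) held windows for 7 of the 10 genes. Each window runs from 250 bases before to 50 bases after the annotated start, 5′ to 3′ on the gene's strand, and of the 5 windows of Egr2 the one with the most matches is printed. Capitals mark TGACG (the core of the CREB and ATF site), TGACNTCA (an AP-1 site with 1 added base) or the CArG box that SRF binds. TGANTCA, the AP-1 site itself, was searched too, and both strands were read.
Fos, chr12:85473640-85473939, plus strand: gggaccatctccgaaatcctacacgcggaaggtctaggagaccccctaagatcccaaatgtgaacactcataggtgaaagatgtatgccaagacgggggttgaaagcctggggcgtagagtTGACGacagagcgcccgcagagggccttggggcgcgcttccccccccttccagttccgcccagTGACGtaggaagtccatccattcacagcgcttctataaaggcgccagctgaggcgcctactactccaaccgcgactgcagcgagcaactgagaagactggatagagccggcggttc
Jun, chr4:95052173-95052472, minus strand: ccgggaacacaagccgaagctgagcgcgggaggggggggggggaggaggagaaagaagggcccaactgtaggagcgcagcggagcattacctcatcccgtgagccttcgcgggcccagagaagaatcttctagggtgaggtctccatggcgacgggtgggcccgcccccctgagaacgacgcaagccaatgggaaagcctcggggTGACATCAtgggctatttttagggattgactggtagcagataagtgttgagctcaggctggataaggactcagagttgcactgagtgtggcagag
Atf3, chr1:191183284-191183583, minus strand: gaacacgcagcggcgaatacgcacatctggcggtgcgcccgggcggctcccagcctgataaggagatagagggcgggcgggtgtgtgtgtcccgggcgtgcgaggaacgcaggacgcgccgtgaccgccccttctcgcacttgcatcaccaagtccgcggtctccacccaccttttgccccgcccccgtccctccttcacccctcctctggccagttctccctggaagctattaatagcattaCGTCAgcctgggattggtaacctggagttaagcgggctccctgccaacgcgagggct
Egr2, chr10:67537619-67537918, plus strand: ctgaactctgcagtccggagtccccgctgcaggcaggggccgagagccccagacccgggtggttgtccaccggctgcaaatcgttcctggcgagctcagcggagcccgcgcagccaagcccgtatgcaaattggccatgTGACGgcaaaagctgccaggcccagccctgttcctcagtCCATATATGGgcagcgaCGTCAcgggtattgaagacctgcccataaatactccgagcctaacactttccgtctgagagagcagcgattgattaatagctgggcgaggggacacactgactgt
Fosl2, chr5:32136222-32136521, plus strand: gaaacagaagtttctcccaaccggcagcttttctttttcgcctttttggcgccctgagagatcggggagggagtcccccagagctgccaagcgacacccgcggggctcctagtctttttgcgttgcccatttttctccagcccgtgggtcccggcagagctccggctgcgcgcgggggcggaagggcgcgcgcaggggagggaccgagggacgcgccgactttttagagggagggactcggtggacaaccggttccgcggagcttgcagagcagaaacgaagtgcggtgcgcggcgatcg

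The Fos window held TGACG 129 and 66 bases upstream of the start. That of Jun held TGACATCA, a form of TGACNTCA, 45 bases upstream. The Atf3 window held TGACG on the opposite strand (CGTCA as printed) 7 bases upstream. The Egr2 window had a CArG box 72 bases upstream, flanked by TGACG 111 bases upstream and by its complement CGTCA 55 bases upstream. Fosl2 held none of the letters searched. Among the windows not printed, Junb had TGACG 106 and Fosb 60 bases upstream. Of all 32851 windows in the table, 20.8% held TGACG, 8.83% TGACNTCA, 7.81% TGANTCA and 1.63% a CArG box. These matches describe letters in a short window and do not separate the genes by pattern, since TGACG stands in both kinds.

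Within the 10 genes, Egr1, Jun, Atf3 and Junb ran with Fos over the arrays, and Fosl1 ran against all of these. Over the 7 arrays, Pearson's r with Fos was 0.94 for Egr1, 0.93 for Jun, 0.85 for Atf3 and 0.74 for Junb. It was 0.30 for Fosb and 0.15 for Egr3. It was negative for Egr2 (-0.18), Fosl2 (-0.47) and Fosl1 (-0.85). With Jun, Junb, Egr1 and Atf3, r was -0.74 to -0.48 for Fosl1 but -0.26 to 0.20 for Egr2 and Fosl2. After each group's mean was removed, r with Fos was 0.93 for Egr1, 0.91 for Jun, -0.90 for Fosl2 and -0.98 for Fosl1. With Jun, Junb, Egr1 and Atf3, r was then -0.69 to -0.21 for Egr2 and Fosl2. Jun and Egr1 had the closest pair of profiles (r = 0.98), and Fosl2 ran with Egr2 (r = 0.83) and Fosl1 (r = 0.79). These are descriptions over 7 arrays whose values come from 1 deposited RMA table, with Wnt+ 2, Wnt+ 3 and SF1+ 4 at the extremes of most of the 10 genes.

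**Figure D3:**
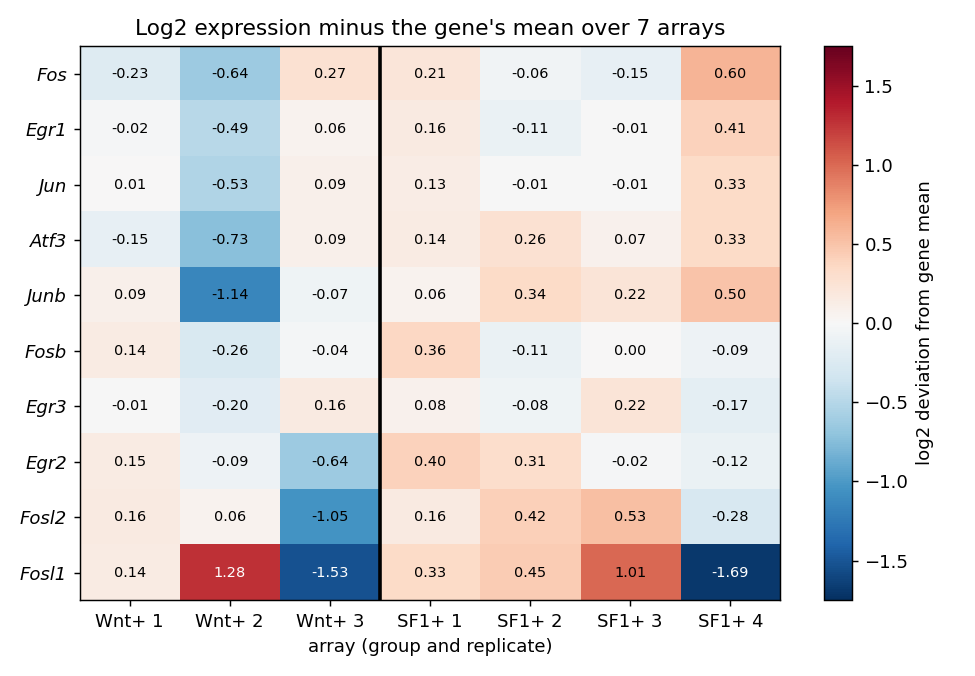
Log2 expression of each gene minus its own mean over the 7 arrays (colour and printed value), with genes in rows and arrays in columns, Wnt+ to the left of the black line and SF1+ to the right. Wnt+ 2 is below the mean in Fos (-0.64), Jun (-0.53), Atf3 (-0.73) and Junb (-1.14), and SF1+ 4 is above it in Fos (0.60) but below it in Fosl1 (-1.69).

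Genes outside the 10 had profiles still closer to Fos. The nearest by Pearson's r over 7 arrays, predicted genes and unnamed clones left out, were Pwwp3a (0.980), Tepsin (0.978), Fmo5 (0.974), Olfr20 (0.969) and Hira (0.966). Egr1 ranked 22 and Jun 34 among all genes by this measure. Pwwp3a had 3.17, 2.73 and 3.51 log2 units in Wnt+ arrays, against 3.67, 3.28, 3.31 and 3.92 in SF1+ arrays, so it is a dim gene near the array medians, as is Tepsin, while Olfr20, at 2.10 to 2.42 log2 units, lies below them. With 7 arrays and 20719 genes, an r of this size is a ranking and no more.

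The contrast between arrays reached further immediate early genes. It was seen in the values of Fosl1 and Fosl2 first, so the counts that follow are descriptions. Wnt+ 3 was the lowest Wnt+ array and SF1+ 4 the lowest SF1+ array in 3 of the 10 genes, in 15 of 35 other immediate early genes (42.9%) and in 8.52% of all genes. These 15 included Ier3, Myc, Gadd45a, Trib1, Tiparp, Bhlhe40 and Cebpb, named after their values were seen. Tiparp, a target of the dioxin receptor, had 6.38, 5.86 and 4.74 log2 units in Wnt+ arrays, against 6.53, 7.06, 7.07 and 5.34 in SF1+ arrays. Wnt+ 3 and SF1+ 4 were here the lowest of all 7.

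The opposite pattern, highest in both Wnt+ 3 and SF1+ 4, was found in Fos, Jun, Egr1 and Atf3 and in 10.6% of all genes. Of the 35 other immediate early genes it was found in 5 (14.3%), a share near that of all genes. These were Ier2, Ier5l, Klf2, Btg2 and Rhob. Ier2, which is induced along with Fos in many cells, had 6.79, 6.68 and 8.01 log2 units in Wnt+ arrays, against 7.39, 7.31, 7.21 and 8.11 in SF1+ arrays. Wnt+ 3 and SF1+ 4 stood above all other arrays.

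Genes known as AP-1 targets more often had the pattern of Fosl1 and Fosl2 than that of Fos, as a count with no test. Of 17 such genes, 9 (52.9%) were lowest in both arrays, among them Mmp13, Plaur, Plau, Hmox1, Il6, Ccl2, Cd44 and Hbegf, and 0 were highest in both. Ccl2, a monocyte chemokine, had 8.39, 7.58 and 5.78 log2 units in Wnt+ arrays, against 8.08, 8.67, 8.92 and 5.75 in SF1+ arrays. Of 15 heat shock and metallothionein genes, 7 (46.7%) were lowest in both arrays. Hspa1a, the heat-inducible HSP70 chaperone, had 10.05, 9.17 and 8.59 log2 units in Wnt+ arrays, against 10.21, 10.21, 9.54 and 8.20 in SF1+ arrays. Of 12 endothelial, 12 leukocyte and 10 stromal markers, 0 were lowest in both. Over all genes, the deviations of Wnt+ 3 and SF1+ 4 from their group means correlated at 0.274. All pairs of a Wnt+ with an SF1+ array ran between -0.217 and 0.301. The labels give no batch that joins Wnt+ 3 with SF1+ 4, and the part of a shared batch was not tested.

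Other genes of the AP-1, ATF and EGR families did not differ past the adjusted threshold in limma. Of 20 listed, Jund was not measured, and of the 19 measured 16 had a negative and 3 a positive difference, with a median of -0.21. At an unadjusted p of 0.05, 5 were lower and 0 higher, against 7.89% of all genes lower and 7.61% higher. The lowest p was that of Batf2, an interferon-induced zipper protein, with 4.21, 4.24 and 4.09 log2 units in Wnt+ arrays, against 6.87, 5.91, 6.58 and 5.39 in SF1+ arrays. Here the groups did not overlap, and the difference was -2.01 (SE 0.34, adjusted p = 0.076 in limma). Creb1, the CREB factor itself, differed by -0.51 (SE 0.13, adjusted p = 0.154), the macrophage factor Maf by -0.74 (SE 0.25) and Atf7 by -0.36 (SE 0.14).

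The other immediate early genes leaned the same way. Of 35, 27 had a negative and 8 a positive difference (median -0.35), 0 passed the adjusted threshold in limma, and 11 were lower and 1 higher at an unadjusted p of 0.05. Ier5, a regulator of heat shock factor HSF1, had 5.31, 4.29 and 4.95 log2 units in Wnt+ arrays, against 5.67, 6.04, 6.09 and 5.91 in SF1+ arrays. All Wnt+ arrays lay below all SF1+ arrays (difference -1.08, SE 0.24, adjusted p = 0.121 in limma). Its relative Ier5l differed by -0.79 (SE 0.20), the growth arrest gene Gadd45a by -0.99 (SE 0.30) and the stress kinase gene Plk3 by -1.02 (SE 0.32).

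Feedback inhibitors, which shut the response down, showed a like split. Of 22, 17 had a negative and 5 a positive difference (median -0.40), 0 passed the adjusted threshold in limma, and 6 were lower and 1 higher at an unadjusted p of 0.05. Zfp36l2, which destabilises AU-rich mRNAs, differed by -1.0 (SE 0.24, adjusted p = 0.132), the cytokine signal inhibitor Socs3 by -0.87 (SE 0.24, adjusted p = 0.168) and the growth factor signal inhibitor Spry1 by -0.79 (SE 0.23). Dusp10, a phosphatase of JNK and p38, ran the other way. It had 6.82, 7.68 and 5.31 log2 units in Wnt+ arrays, against 5.63, 4.64, 4.41 and 4.10 in SF1+ arrays, with only Wnt+ 3 inside the SF1+ range (difference 1.91, SE 0.59, adjusted p = 0.201 in limma).

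Upstream of the 10 genes, kinases and SRF partners were near balance. Of 21, 13 had a negative and 8 a positive difference (median -0.07), 0 passed the adjusted threshold in limma, and 3 were lower and 1 higher at an unadjusted p of 0.05. Elk3, an ETS partner of SRF that is also known in blood vessels, had 7.30, 5.62 and 6.98 log2 units in Wnt+ arrays, against 8.04, 7.96, 7.99 and 8.65 in SF1+ arrays (difference -1.52, SE 0.40, adjusted p = 0.156). The ETS partner Elk4 differed by -0.36 (SE 0.13) and the SRF coactivator gene Mrtfb by -0.41 (SE 0.17).

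Known AP-1 targets had 10 positive and 7 negative differences of 17 (median 0.08), and 0 passed the adjusted threshold in limma. Of the 10 positive differences, 4 (0.03 to 0.14) came from genes below 3 log2 units in every array, under the array medians. The positive count thus includes genes near the floor. At an unadjusted p of 0.05, 2 of the 17 targets were lower and 1 higher. The urokinase receptor gene Plaur differed by -1.31 (SE 0.39, adjusted p = 0.189), the EGF receptor ligand Hbegf by -1.55 (SE 0.58), the angiogenic factor Vegfa by 0.98 (SE 0.36) and the protease inhibitor Timp1 by 1.21 (SE 0.60).

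Heat shock and metallothionein genes, the other set of genes known to respond to dissociation, were slightly positive. Of 16 listed, Hspa1b was not measured, and of the 15 measured 10 had a positive and 5 a negative difference (median 0.12). At the adjusted threshold in limma 0 passed, and at an unadjusted p of 0.05, 2 were higher and 0 lower. Both were mitochondrial chaperones. Hspd1 had 9.46, 9.67 and 9.39 log2 units in Wnt+ arrays, against 8.99, 8.78, 8.53 and 8.54 in SF1+ arrays, without overlap (difference 0.80, SE 0.14, adjusted p = 0.0855). Its partner Hspe1 differed by 0.58 (SE 0.13, adjusted p = 0.12), whereas Hsp90ab1 differed by 0.15 (SE 0.11) and the endoplasmic reticulum chaperone Hspa5 by -0.21 (SE 0.14).

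**Figure D4:**
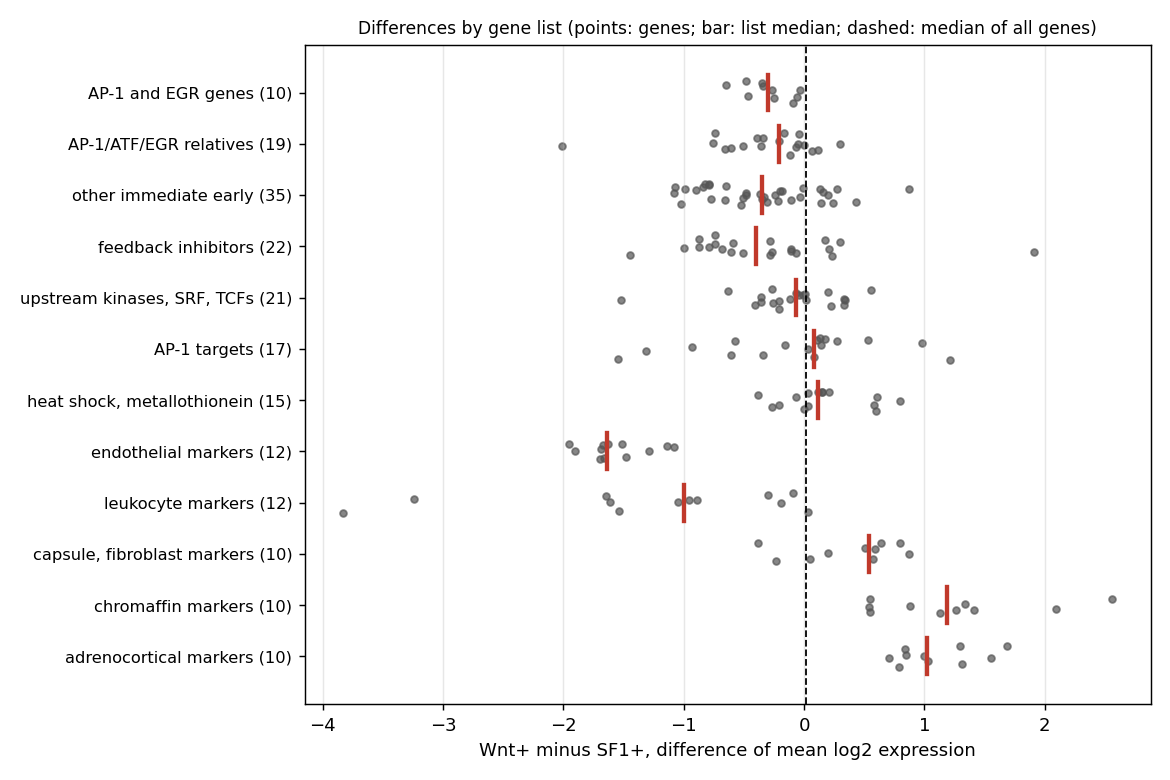
Difference of mean log2 expression, Wnt+ minus SF1+ (horizontal axis), of each gene (points) in 12 gene lists (rows, with the number measured), with list medians as red bars and the median of all genes, 0.02, as a dashed line. The medians are -0.30 for the AP-1 and EGR genes, -0.35 for other immediate early genes and -0.40 for feedback inhibitors. Over the 12 lists, medians run from -1.64 (endothelial) to 1.19 (chromaffin).

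Endothelial markers were lowest in Wnt+ 2, the array on which several of these differences rest. All 12 endothelial markers had negative differences with an unadjusted p under 0.05 (median -1.64), and 0 passed the adjusted threshold in limma. Their mean was 7.73, 5.58 and 6.84 log2 units in Wnt+ arrays, against 7.93, 8.24, 8.48 and 8.44 in SF1+ arrays. Wnt+ 2, the array lowest for 7 of the 10 immediate early genes, was the lowest for 11 of these 12. It was the lowest for 7 of 12 leukocyte, 3 of 10 stromal, 0 of 10 adrenocortical and 0 of 10 chromaffin markers. The summed level of the endothelial markers on the linear scale ran between 860 and 3482 in Wnt+ arrays, against 4141 and 5361 in SF1+ arrays. Whether this moves with the immediate early genes for a reason was not tested, and in bulk samples fewer cells of a type and less RNA per cell cannot be told apart.

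Leukocyte markers had 11 negative differences of 12 (median -1.0), with linear sums of 952 to 1366 in Wnt+ arrays and 1521 to 3431 in SF1+ arrays. Of them, 2 fell in Wnt+ cells past the adjusted threshold in limma, the cytotoxic granule gene Nkg7 (-3.83, SE 0.42, adjusted p = 0.0396) and Siglech of plasmacytoid dendritic cells (-3.24, SE 0.14, adjusted p = 0.00123). With 1 array left out, the adjusted p ran between 0.00325 and 0.0187 for Siglech and between 0.00342 and 0.139 for Nkg7, whose call was lost without Wnt+ 2, Wnt+ 3, SF1+ 2, SF1+ 3 or SF1+ 4. Neither passed with the authors' p-values after adjustment. Stromal markers had 8 positive differences of 10 (median 0.54), with sums of 413 to 1211 in Wnt+ arrays and 378 to 849 in SF1+ arrays.

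Markers of the labelled cell type, adrenocortical cells, were read in both groups. All 10 adrenocortical markers were higher in Wnt+ cells at an unadjusted p of 0.05 (median difference 1.02), and 0 passed the adjusted threshold in limma. Their sums were 5512 to 7593 in Wnt+ arrays and 2608 to 4183 in SF1+ arrays. Nr5a1 had 6.87, 7.61 and 7.41 log2 units in Wnt+ arrays, against 6.41, 5.38, 5.44 and 5.75 in SF1+ arrays, although the SF1+ cells were sorted on its reporter. Chromaffin markers were also measured in both, with 10 positive differences of 10 (median 1.19), 4 of them at an unadjusted p of 0.05, and sums of 1185 to 2798 in Wnt+ arrays and 429 to 1417 in SF1+ arrays.

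The authors' deposited table also gives, for the same genes, folds and unadjusted p-values of another experiment, in which lines of mouse adrenocortical tumor cells were treated with Bio, as the header calls it, or with vehicle, in 4 pairs. Its sample values were not analysed here, so the spread behind these folds is not given. In the authors' deposited table, 7 of the 10 genes were lower with Bio at an unadjusted p of 0.05 and 1 was higher, against 17.3% and 18.2% of all genes. After adjustment over all genes, 5 were lower and 1 higher, against 9.06% and 9.82%.

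Fos stood at 0.386 times its vehicle level with Bio in the authors' deposited table (p = 0.00364, adjusted 0.0307). Egr1 stood at 0.405 (p = 0.00132, adjusted 0.0209) and Junb at 0.59 (p = 0.000104, adjusted 0.0116) in the authors' deposited table. Fosb was at 0.474, with a p of 0.0101 that gave 0.0519 after adjustment, in the authors' deposited table. At least 2-fold lower were thus Fos, Egr1 and Fosb, as 1.11% of all genes were.

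The other genes of the 10 lay nearer to their vehicle level. Fosl1 was at 0.808 (adjusted p = 0.0258), Egr2 at 0.861 (adjusted p = 0.0186) and Jun at 0.856 (adjusted p = 0.0693) times vehicle in the authors' deposited table. Fosl2 at 0.894 and Egr3 at 0.929 did not pass an unadjusted p of 0.05 in the authors' deposited table.

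Atf3 went the opposite way, at 2.19 times vehicle with Bio (p = 0.00154, adjusted 0.0218) in the authors' deposited table, and 0.425% of all genes were at least 2-fold higher. Of 19 other AP-1, ATF and EGR relatives, 5 were higher and 3 lower with Bio at an unadjusted p of 0.05 in the authors' deposited table, with a median log2 fold of -0.01. Picked after their values were seen, Atf5 at 3.05, Jdp2 at 1.66 and Atf4 at 1.51 times vehicle stood on the side of Atf3 in the authors' deposited table, and Maff at 0.464, Creb5 at 0.696 and Mafk at 0.713 on the other. Of 22 feedback inhibitors, 18 were lower and 1 higher with Bio at an unadjusted p of 0.05 in the authors' deposited table, among them Socs3 at 0.534 and Dusp10 at 0.612 times vehicle. Of 35 other immediate early genes, 21 were lower and 5 higher, with Ier5l at 0.818 and Gadd45a at 2.51 times vehicle in the authors' deposited table. In the sorted cells Atf3 and Fos both had negative differences (-0.47 and -0.35), neither past the adjusted threshold in limma.

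**Figure D5:**
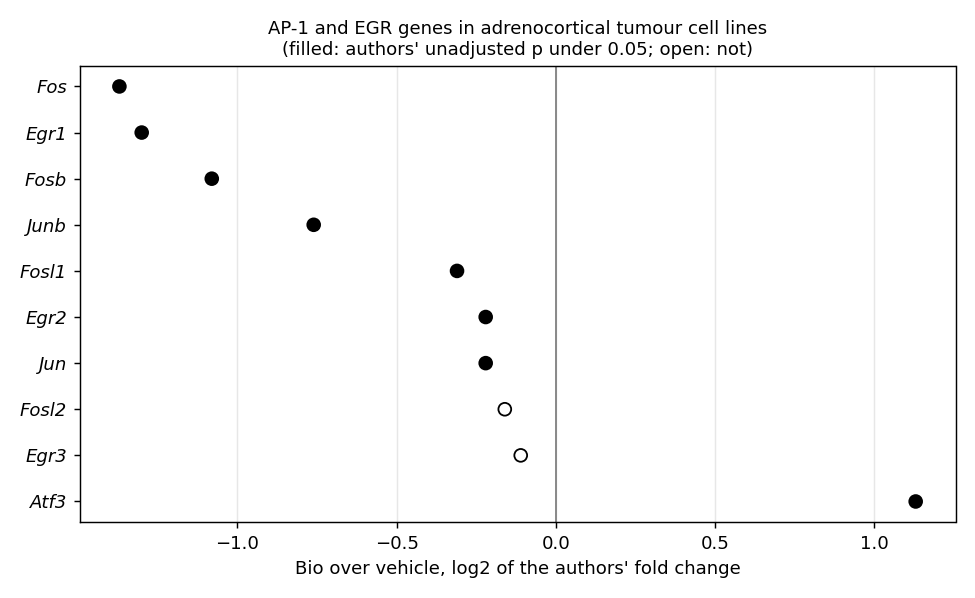
The authors' deposited fold change, Bio over vehicle on a log2 axis, of each of the 10 genes in lines of mouse adrenocortical tumor cells (filled points have an authors' unadjusted p under 0.05, open points do not). Fos (-1.37), Egr1 (-1.30) and Fosb (-1.08) lie farthest to the left and Atf3 (1.13) alone to the right of 0. No error bars are drawn because the sample values were not analysed here.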

How the data were processed

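RNA of sorted adrenal cells (5 ng per sort) was amplified and hybridised to Mouse Gene ST arrays, 3 for Wnt+ and 4 for SF1+, grouped by sample titles. Values deposited by the authors are log2 expression of each transcript cluster by RMA on perfect-match probes, per the file headers. The submitters' processing notes name oligo and RMA, with no versions, and no genome build was found in the headers or labels. RMA gives the probe values of all arrays 1 distribution, which hides a shift of total RNA. The authors' deposited p-value and fold ratio columns (Wnt+ over SF1+, and Bio over vehicle) are unadjusted and linear per the file headers. The series' value table held the same log2 values and served as an alternative, and 7 per-sample columns of a drawing sheet were not used.

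Of 28944 clusters, 23812 had a symbol. The cluster with the highest mean over 7 arrays stood for a gene, leaving 20719 genes. Entrez identifiers of 23508 clusters matched RefSeq (GRCm38.p6), which gave current symbols, chromosomes and promoter windows. The group difference was fitted in R 4.3.3 using limma 3.58.1 (lmFit, then eBayes with prior degrees of freedom 1.98), two-sided, with Benjamini-Hochberg adjustment over all genes and a threshold of 0.05. SE and intervals are those of this fit. Precision is limited by the number of arrays. Figures used Python 3.11.15 and matplotlib 3.10.9, and the fit was tested on simulated data.

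The genes, the lists and the tests were chosen with earlier results of these data known. The rule for named genes took all 10 genes, the 4 genes of smallest limma p in every other list and the 5 genes nearest to Fos. Cell type marker lists are given as counts and levels, with only Nr5a1, Nkg7 and Siglech named, and a listed gene is not reported here. Genes named for their array pattern or their response to Bio outside this rule were picked after their values were seen. Tried besides were omission of each array, a replicate block, dim genes left out, median centring, further quantile normalization, array weights, trended and robust moderation, averaged clusters per gene, the authors' p-values after adjustment, and the series' value table.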

Additional observations from a re-analysis of the deposited data

Results flagged for a closer look

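Elk3, the ETS partner of SRF, was the 1 of 59 named genes with an array far from the rest of its group. Its log2 value was 8.65 in SF1+ 4, while the other SF1+ arrays lay between 7.96 and 8.04. The gap to the nearest array was 0.88 of the group's range, above Dixon's 95% critical value for 4 arrays. Chance flags about 1 in 20 groups, so 1 flag among 59 genes is no more than chance gives. Groups of 3 arrays were not examined in this way. SF1+ 4 was also the highest array for Fos, Jun, Junb, Atf3 and Egr1.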

How the results depend on the processing

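Of 160 values of the 10 genes under alternatives, 152 kept their direction and their side of the threshold, 8 changed sign and 0 passed the adjusted threshold. Dim genes left out, trended and robust moderation, averaged clusters, the authors' p-values and the series' value table could not change a difference. In these settings the direction of the 10 genes was fixed by construction, so the count of kept directions overstates the stability. The sign changes all came from leaving out an array: Fosb was 0.01 without SF1+ 1 or without Wnt+ 2, Egr3 was 0.04 without SF1+ 3 and 0.06 without Wnt+ 2, and Fosl1 was 0.04, 0.08 and 0.26 without SF1+ 1, 2 and 3 and 0.68 without Wnt+ 3. With 1 array left out, the differences ran between -0.19 and 0.01 for Fosb, -0.72 and 0.68 for Fosl1, and -0.12 and 0.06 for Egr3. Over the alternatives, the lowest adjusted p was 0.21 for Atf3 and 0.215 for Junb. The number of all genes past the threshold, 53 in the reported fit, ran between 1 and 312 when an array was left out. It was 221 with dim genes left out, 155 with trended and robust moderation, 27 with median centring, 33 with array weights and 0 with the authors' p-values after adjustment. No pairing by replicate number was seen: same-numbered arrays had deviations from their group means that correlated at -0.217, 0.034 and -0.214. So few correlations of centred values cannot exclude a pairing. With the replicate block 0 genes passed, and 1 of the 10, Egr2 (-0.43, SE 0.12), had an unadjusted p under 0.05 in limma. The differences also included -0.20 for Fos, -0.58 for Junb and -0.42 (SE 0.23) for Atf3. The causes of these shifts were not tested. The limits are 3 and 4 arrays, pools of animals, 1 reporter line per group and no undigested tissue.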
